A study of Homo sapiens with 4 samples.

Results

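The ALDH1 and ALDH2 genes encode the aldehyde dehydrogenases that oxidise retinal, acetaldehyde and a formyl derivative of folate. These genes are the main candidates behind sorting of cells by ALDH activity. The set was listed by gene symbol, with no cutoff on measured values, though earlier results of these data were known. It held ALDH1A1, ALDH1A2, ALDH1A3, ALDH1B1, ALDH1L1, ALDH1L2 and ALDH2. All 7 were measured, out of 18377 genes in all. Huh7, a human line derived from hepatocellular carcinoma, had been separated by flow cytometry, once for ALDH and once for CD133, the membrane protein encoded by PROM1. This gave 4 fractions with 1 microarray each: ALDH-positive, ALDH-negative, CD133-positive and CD133-negative cells. The series title sets the marker-positive fractions, as cancer stem cells, against the marker-negative ones. No treatment, time or genotype distinguishes the fractions, all came from 1 cell line, and the labels give neither the reagent used to detect ALDH nor the gates.

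Aldehyde dehydrogenases are NAD(P)-dependent enzymes that turn reactive aldehydes into carboxylic acids. The ALDH1A enzymes are cytosolic and make retinoic acid, the ligand of nuclear receptors that control differentiation. ALDH2 and ALDH1B1 lie in mitochondria and clear acetaldehyde, the first product of ethanol, and in liver this is their best known task. ALDH1L1 in the cytosol and ALDH1L2 in mitochondria carry an aldehyde dehydrogenase domain but act on 10-formyltetrahydrofolate, a carrier of one-carbon units. High ALDH activity is a common criterion for isolating stem-like cells from tumours, and it reports enzyme activity, not transcript level.

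Values are log2 expression levels on a scale where 1 unit is a 2-fold change. Each difference is the positive fraction minus the negative fraction of the same sort. With 1 array per fraction there is no replicate spread, so no difference was tested and no p-value is given. Instead, each difference is set beside those of all genes above an expression floor, which was the median of all values (4.98). A gene entered the counts of a sort where its brighter array reached that floor. Fewer expressing cells and less RNA per cell cannot be told apart in such bulk samples.

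The arrays were alike, with correlations over all probes of 0.982 to 0.989 between pairs and medians of 4.92 to 5.04. All 13 measured hepatocyte markers of 15 listed lay above the floor on all 4 arrays. Their levels were lower for 10 of 13 in CD133-positive cells, with a median difference of -0.19, where 42.9% of all genes were higher. Of the 13, 4 were 1.5-fold lower, beside 1.89% of all genes: AHSG (-1.58), APOH (-1.05), APOA1 (-0.78) and APOB (-0.69). TTR alone was 1.5-fold higher (0.99), beside 2.74% of all genes. The corresponding ALDH median was 0.06, with 7 of 13 higher. Of the markers of other cell types, 4 of 9 measured for leukocytes, 5 of 10 for fibroblasts and stellate cells and 2 of 9 for endothelium reached the floor on any array. Of all 18377 genes, 12177 did so. The leukocyte markers CD14, CD68, LYZ and NKG7 lay above the floor on all 4 arrays. PTPRC, the defining leukocyte marker, and the other measured leukocyte markers lay below it throughout. In the ALDH sort lysozyme LYZ was higher by 1.33 in ALDH-positive cells, CD14 by 0.42 and NKG7 by 0.40. The macrophage protein CD68 differed by -0.77. The endothelial genes PECAM1 and CDH5 differed by -0.93 and -0.67, above the floor only in ALDH-negative cells. PECAM1 had 2 probes, and with their mean it fell below the floor. The part of these markers in the results below was not tested. Mean log2 levels of the measured leukocyte markers were 4.96 in the ALDH-positive and 4.70 in the ALDH-negative fraction, and 4.79 in the CD133-positive and 4.75 in the CD133-negative fraction. PROM1 followed the labels of the CD133 sort, at 9.0 in the CD133-positive and 5.32 in the CD133-negative fraction. In the ALDH sort it was at 7.11 in the ALDH-positive and 8.39 in the ALDH-negative fraction.

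ALDH1A1, the cytosolic retinal dehydrogenase most often named in ALDH sorting, was at nearly the same level in both fractions of each sort. Its log2 level was 11.14 in the ALDH-positive and 11.10 in the ALDH-negative fraction, and 11.47 in both CD133-positive and CD133-negative cells. The differences were 0.04 in the ALDH sort and -0.0034 in the CD133 sort. Of the genes above the floor, 89.3% differed by at least that much in the ALDH sort and 98.9% in the CD133 sort. The sign of so small a difference depended on the scaling: over the settings tried it ran from -0.01 to 0.11 in the ALDH sort and from -0.07 to 0.07 in the CD133 sort. The probe lay far above the floor, by 6.49 on its brightest array, and below the brightest probe of each array, which ran from 13.1 to 13.5.

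A larger contrast for ALDH1A1 lay between the pairs of arrays. The mean of the ALDH sort was 11.12 and that of the CD133 sort 11.47, a difference of -0.35. This was 7.90 times the larger of its differences within a sort. Of genes that passed the floor in 1 or both sorts, 21.3% had a difference between the sorts at least as large. The labels do not say whether the sorts were done on the same culture or day, so sort and any such batch cannot be told apart.

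ALDH1A2, the retinal dehydrogenase known best from embryonic development, lay below the floor on all 4 arrays. Its log2 level was 3.81 in the ALDH-positive and 4.06 in the ALDH-negative fraction, and 3.49 in the CD133-positive and 3.34 in the CD133-negative fraction. The higher values were thus both in the ALDH sort, and its differences within the sorts, -0.25 and 0.15, are between dim signals and were left out of the counts. ALDH1A1 and ALDH1A2 were the 2 genes of the 7 that differed more between the sorts than within either. The share of all genes that did so was not computed, so this count has no background beside it.

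ALDH1A3, the third retinal dehydrogenase and one linked to ALDH activity in several tumour types, was the only one of the 7 higher in both positive fractions by more than 0.1. Its level was 5.13 in the ALDH-positive and 4.69 in the ALDH-negative fraction. It was again 5.13 in the CD133-positive and 4.74 in the CD133-negative fraction. Both positive fractions lay just above the floor and both negative fractions just below it. The differences were 0.45, or 1.36-fold, and 0.39, or 1.31-fold. A second probe of this gene, drawn from a single transcript, gave 0.48 and 0.43, so both probes had the same direction in both sorts. Its levels of 4.22 to 4.980 all lay below the floor of 4.985. With the mean over both probes, the gene fell below the floor in the ALDH sort. Of genes above the floor, 20.1% differed at least as much in the ALDH sort and 14.2% in the CD133 sort. Of 11293 genes that passed the floor in both sorts, 88 others were higher in both by at least these amounts. With each value under the floor set to the floor, the differences shrank to 0.15 in both sorts.

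**Figure D1:**
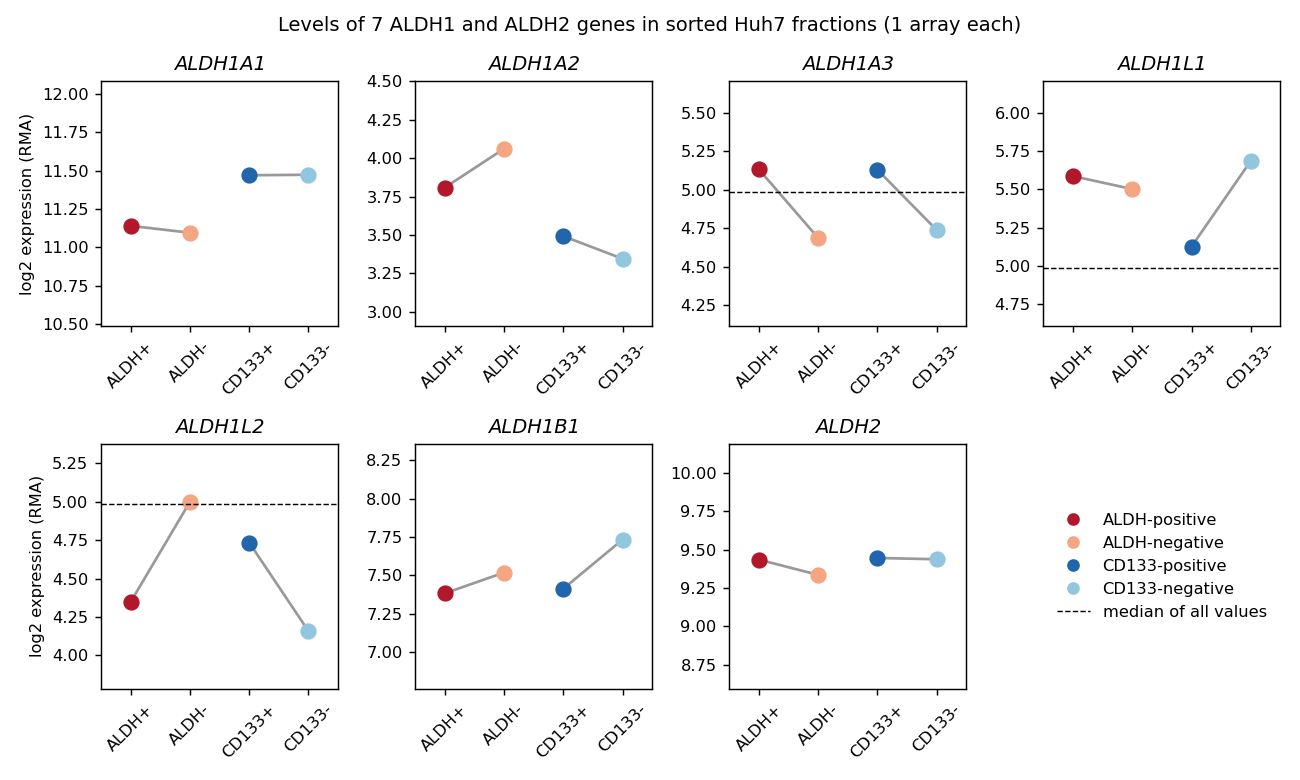
Log2 expression of the 7 genes (vertical axes, each spanning 1.6 units around the gene's own values) on the 4 arrays, with lines joining the fractions of 1 sort and a dashed line at the median of all values where it falls in the panel. ALDH1A1 and ALDH2 are nearly flat within each sort, ALDH1A3 is higher in both positive fractions, and ALDH1L2 goes opposite ways.

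The regions upstream of ALDH1A1 and ALDH1A3 are shown because these are the retinal dehydrogenases whose values differ most in kind, a bright and even gene and a dim one higher in both positive fractions. Each run gives the 250 bases before the start of the RefSeq transcript (assembly GRCh38.p14), with capitals for matches to CCAAT and ATAAA, the letters of a CCAAT box and of a TATA-like element, searched on both strands.
ALDH1A1, chr9:72953054-72953303, minus strand: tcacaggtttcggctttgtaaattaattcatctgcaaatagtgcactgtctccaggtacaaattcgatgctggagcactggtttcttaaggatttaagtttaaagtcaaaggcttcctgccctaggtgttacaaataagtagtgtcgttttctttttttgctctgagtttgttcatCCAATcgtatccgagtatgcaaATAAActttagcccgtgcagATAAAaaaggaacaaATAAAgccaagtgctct
ALDH1A3, chr15:100879581-100879830, plus strand: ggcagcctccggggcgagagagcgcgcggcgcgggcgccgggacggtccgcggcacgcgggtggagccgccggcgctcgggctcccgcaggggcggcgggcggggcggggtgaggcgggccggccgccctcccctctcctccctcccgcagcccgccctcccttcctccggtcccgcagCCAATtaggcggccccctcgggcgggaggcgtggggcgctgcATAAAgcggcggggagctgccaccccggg
Both hold 1 CCAAT, which begins 74 bases before the start in ALDH1A1 and 71 in ALDH1A3. ATAAA occurs 3 times upstream of ALDH1A1, the middle copy beginning 32 bases before the start, and once (29 bases before it) in ALDH1A3; all of these are on the gene's own strand and none overlap. Of 35116 such windows, 32% hold CCAAT, 32.7% hold ATAAA and 11.7% hold both, so the matches are common and describe the letters only. The windows differ in base composition: 38.4% of bases were G or C for ALDH1A1, with 6 CpG dinucleotides, and 82.4% for ALDH1A3, with 38. The median over all windows was 58%, and 98.6% of them had a lower share than ALDH1A3. ALDH1A2, ALDH1B1 and ALDH1L1 also had windows, while none was used for ALDH1L2 and ALDH2.

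ALDH2, the mitochondrial acetaldehyde dehydrogenase, was the steadiest of the 7. It stood at 9.44 in the ALDH-positive and 9.34 in the ALDH-negative fraction, and at 9.45 in the CD133-positive and 9.44 in the CD133-negative fraction. Its whole range over the 4 arrays was 0.11. The differences of 0.10 and 0.0084 were matched or exceeded by 76.6% and 97.1% of genes above the floor in the ALDH and CD133 sorts. The sign in the CD133 sort changed with the scaling, from -0.06 to 0.05.

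ALDH1B1, a mitochondrial enzyme related to ALDH2, was lower in both positive fractions. Its level was 7.38 in the ALDH-positive and 7.52 in the ALDH-negative fraction, a difference of -0.14. It was 7.41 in the CD133-positive and 7.73 in the CD133-negative fraction, a difference of -0.32. The CD133-negative array stood above the other 3, which lay within 0.14 of one another. The direction held under every scaling tried, from -0.19 to -0.07 in the ALDH sort and from -0.39 to -0.26 in the CD133 sort. Differences of this size were common, with 68.9% and 21.9% of genes at or beyond them.

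ALDH1L1, the cytosolic 10-formyltetrahydrofolate dehydrogenase, was lower in CD133-positive cells by just short of 1.5-fold. It was at 5.13 in the CD133-positive and 5.69 in the CD133-negative fraction, a difference of -0.56 or 1.47-fold, which 5.47% of genes above the floor matched. In the ALDH sort it was at 5.59 in the ALDH-positive and 5.50 in the ALDH-negative fraction, a difference of 0.08. The CD133-positive array was thus the low one of the 4, and whether the sorts differ was not tested. With each array centred on its own median the CD133 difference was -0.63, past 1.5-fold. Of 13 hepatocyte markers, 10 were lower in the same fraction (median of the 13 -0.19), and their part in this value was not tested. Over the 4 arrays, with each gene centred on its own mean, the nearest patterns by Euclidean distance were those of MLYCD, which encodes malonyl-CoA decarboxylase (distance 0.04, differences 0.11 in the ALDH and -0.51 in the CD133 sort), the F-box gene FBXO36 (0.04) and the complement gene C2 (0.06). Within a distance of 0.2 there were 135 of 12176 genes.

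ALDH1L2, the mitochondrial 10-formyltetrahydrofolate dehydrogenase, had the widest range of the 7, 0.84, with differences of opposite sign between mostly dim signals. Its level was 4.35 in the ALDH-positive and 5.0 in the ALDH-negative fraction, a difference of -0.65 or 1.57-fold. It was 4.73 in the CD133-positive and 4.16 in the CD133-negative fraction, a difference of 0.58 or 1.49-fold. The ALDH-negative array passed the floor, by 0.02, and the other 3 lay below it. With each value under the floor set to the floor, the ALDH difference was -0.02, so its size rests on dim signal. In the ALDH sort 7.96% of genes above the floor differed at least as much; the CD133 difference, between arrays both below the floor, was not ranked. The nearest patterns were NTSR2, a neurotensin receptor (distance 0.07, differences -0.57 and 0.58), LIMA1, an actin-binding protein (0.07, -0.58 and 0.58), and ABRAXAS1, a subunit of a BRCA1 complex (0.08, -0.74 and 0.52). Of 12177 genes that passed the floor in 1 or both sorts, 244, or 2%, were opposite by at least 0.5 in both.

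As a set, the 7 genes gave no common direction in either sort. In the ALDH sort 6 of them were above the floor, of which 0 were 1.5-fold higher and 1, ALDH1L2, was 1.5-fold lower in ALDH-positive cells. ALDH1L2 passed the floor only through its ALDH-negative array, by 0.02, and ALDH1A3 only through its ALDH-positive array. The sign of each was thus fixed by the floor. With values raised to the floor, 0 genes were 1.5-fold lower. Over all 11879 genes above the floor, 4.15% were 1.5-fold higher and 6.6% were 1.5-fold lower. The median of the 6 was 0.06, beside -0.01 over all genes. For CD133, 5 were above the floor and 0 reached 1.5-fold in either direction, beside 2.74% higher and 1.89% lower over 11591 genes. The median of the 5 was -0.0034, beside -0.04 over all genes. At 2-fold, 0 of the 7 genes qualified in either sort, beside 1.57% of all genes in the ALDH sort and 0.88% in the CD133 sort.

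By compartment, 3 of the 4 cytosolic enzymes passed the floor in the ALDH sort: ALDH1A1, ALDH1A3 and ALDH1L1. All 3 were above 0 as deposited, as were 48.5% of all genes above the floor. The 3 had a median of 0.08. ALDH1A3 passed the floor only through its ALDH-positive array, which fixed its sign. ALDH1A2, below the floor, differed by -0.25, and the median of all 4 was 0.06. With each array centred, ALDH1A1 turned to -0.01. Of the 3 mitochondrial enzymes, ALDH1B1 and ALDH1L2 were below 0 and ALDH2 above it, with a median of -0.14. ALDH1L2 passed the floor only through its ALDH-negative array, which fixed its sign. In the CD133 sort the median over ALDH1A1, ALDH1A3 and ALDH1L1 was -0.0034. The 2 mitochondrial genes above the floor had -0.32 for ALDH1B1 and 0.0084 for ALDH2.

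**Figure D2:**
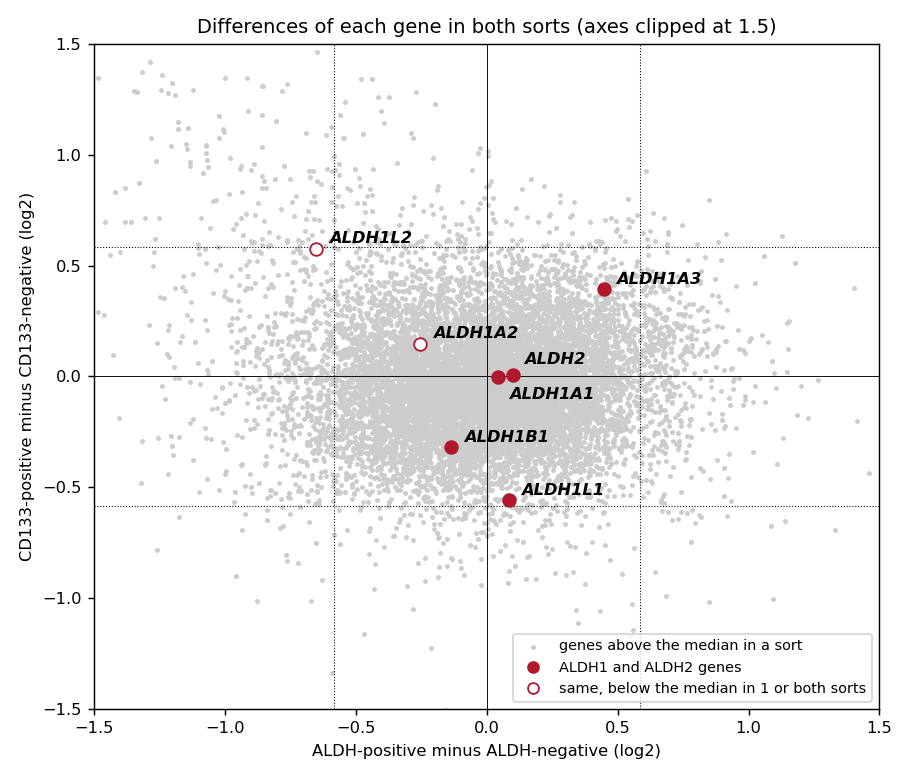
Difference of each gene in the ALDH sort (horizontal axis, log2) and in the CD133 sort (vertical axis, log2), for the 7 genes in red over the 12177 genes above the median of all values in at least 1 sort in grey; open circles fell below it in 1 or both sorts, dotted lines mark 1.5-fold, and 43 grey genes lie outside the axes. ALDH1A1 and ALDH2 sit near the origin, ALDH1A3 to the upper right and ALDH1L2 to the upper left.

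The other 12 aldehyde dehydrogenases, which act on fatty, amino acid and other aldehydes, were measured as well. None of the 10 above the floor reached 1.5-fold in either sort as deposited, and most of all genes above the floor did not either. The medians of the 10 were -0.0066 in the ALDH and -0.0034 in the CD133 sort. Among these 10, the largest differences in the ALDH sort were -0.44 for ALDH5A1, the succinic semialdehyde dehydrogenase, and -0.43 for ALDH3B1. Those in the CD133 sort were -0.55 for ALDH4A1, an enzyme of proline breakdown (-0.61, past 1.5-fold, with each array centred), and -0.41 for ALDH6A1, an enzyme of valine breakdown.

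Genes that supply and bind the substrate of the ALDH1A enzymes were described next. Of 26 listed, 20 were measured, and in the ALDH sort 11 were above the floor, with a median of -0.04. Of the 11, 1 was 1.5-fold higher and 2 were lower, beside 4.15% and 6.6% of all genes. RDH10, which oxidises retinol to the retinal that ALDH1A enzymes use, was at 7.80 in the ALDH-positive and 8.66 in the ALDH-negative fraction, a difference of -0.86. It was at 8.53 in the CD133-positive and 7.62 in the CD133-negative fraction, a difference of 0.90. RDH10 was the only one of 10 genes past 1.5-fold in that sort, beside 2.74% of all genes higher and 1.89% lower. RDH10 thus went opposite ways in the sorts at 1.81-fold and 1.87-fold, well above the floor throughout.

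RBP2, an intestinal retinol carrier, was at 8.34 in the ALDH-positive and 9.33 in the ALDH-negative fraction, a difference of -0.98, with 0.23 in the CD133 sort. STRA6, the membrane receptor for retinol-binding protein, was at 5.0 in the ALDH-positive and 4.38 in the ALDH-negative fraction, a difference of 0.61; its ALDH-negative value lay below the floor, and other scalings took it under 1.5-fold or under the floor. RBP4, the blood carrier of retinol made by liver, differed by -0.03 and -0.38 in the ALDH and CD133 sorts.

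Downstream of retinoic acid, most receptors and targets stayed short of 1.5-fold, as did most of all genes above the floor. The shares of all genes past it were 4.15% higher and 6.6% lower in the ALDH sort, and 2.74% and 1.89% in the CD133 sort. Of 5 measured receptor genes of 6, 2 were above the floor in the ALDH sort and 3 in the CD133 sort, and none reached 1.5-fold. Among those above the floor, RXRA, a partner of the retinoic acid receptors, had the largest difference in both, 0.29 and -0.32. Of 10 measured targets of 13 listed, 6 were above the floor in each sort, with medians of 0.11 and 0.23. STRA6, also a target, was the only one at 1.5-fold as deposited, in the ALDH sort. After centring, a second quantile normalization or loess it no longer counted, and PLAAT4, a retinoid-induced growth suppressor, did instead, lower in ALDH-positive cells (-0.56 as deposited and -0.61 to -0.63 under these scalings). CYP26A1, the retinoic acid-degrading enzyme whose gene is a sensitive target, lay below the floor on all arrays and differed by -0.07 and 0.04.

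**Figure D3:**
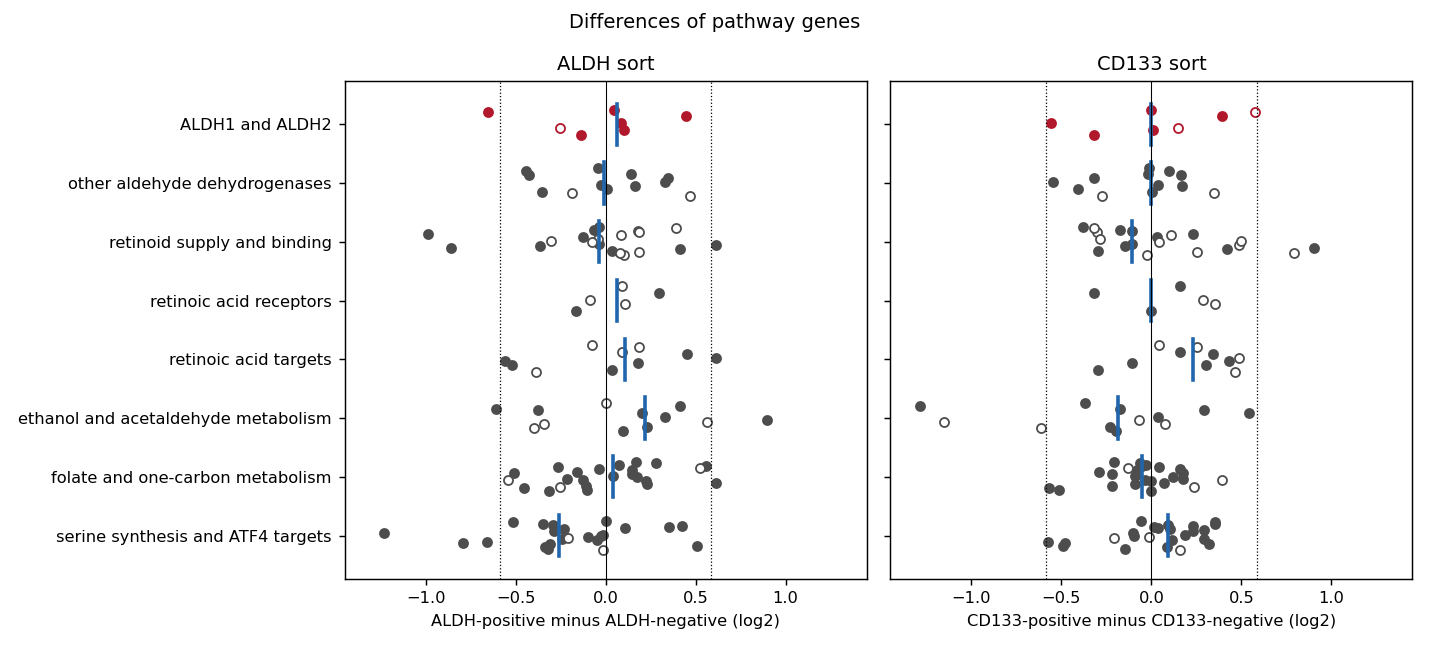
Differences (horizontal axes, log2, positive minus negative fraction) of the 7 genes in red and of the other lists in grey, in the ALDH sort at left and the CD133 sort at right; open circles lay below the median of all values in that sort, blue bars are medians of the filled points and dotted lines mark 1.5-fold. The serine synthesis and ATF4 list lies left of 0 in the ALDH sort, with a median of -0.26.

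Around ethanol and acetaldehyde, the largest differences were those of an alcohol dehydrogenase upstream of ALDH2 and of acetate-using enzymes downstream of it. Of 12 measured genes of 13, 8 were above the floor in each sort, with medians of 0.22 in the ALDH and -0.19 in the CD133 sort. ADH6, an alcohol dehydrogenase of liver, was at 5.29 in the CD133-positive and 6.57 in the CD133-negative fraction, a difference of -1.29, and at 5.79 in the ALDH-positive and 5.37 in the ALDH-negative fraction, a difference of 0.42. Of 13 hepatocyte markers, 10 were lower in the same CD133-positive fraction, and their part in this was not tested. ACSS2 and ACSS1, which turn the acetate made by ALDH2 into acetyl-CoA, differed by -0.61 and 0.90 in the ALDH sort, and loess or another round of quantile normalization took ACSS2 under 1.5-fold. ACSS1 was at 5.04 in the ALDH-positive and 4.15 in the ALDH-negative fraction, the second value below the floor, and against the floor it did not reach 1.5-fold.

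Few partners of ALDH1L1 and ALDH1L2 in folate and one-carbon metabolism reached 1.5-fold, which was also true of all genes above the floor. In the ALDH sort 4.15% of all genes were 1.5-fold higher and 6.6% lower, and in the CD133 sort 2.74% and 1.89%. Low counts thus do not set this list apart. Of 24 measured genes of 28, 21 were above the floor in each sort, with medians of 0.04 in the ALDH and -0.05 in the CD133 sort. TYMS, the thymidylate synthase of dividing cells, was the only one at 1.5-fold, at 9.47 in the ALDH-positive and 8.85 in the ALDH-negative fraction, a difference of 0.62. It fell short with each array centred (0.56), and after a second quantile normalization or loess GGH, which trims stored folate, passed 1.5-fold too (0.61 and 0.60, beside 0.56 as deposited). SHMT2 and MTHFD2, which handle one-carbon units on folate in mitochondria, differed by 0.07 and -0.04 in the ALDH sort. In the CD133 sort 0 reached 1.5-fold (1 with centring or loess), and DMGDH, which breaks down dimethylglycine (-0.57), and MTRR, which reactivates methionine synthase (-0.51), differed most.

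The last list held serine synthesis genes and other genes known to be induced by ATF4, a transcription factor of the amino acid stress response. In the ALDH sort 18 of 22 genes above the floor had lower levels in the ALDH-positive fraction, and their median was -0.26, where 48.5% of all genes were higher. Of the 22, 3 were 1.5-fold lower and 0 higher, beside 6.6% and 4.15% of all genes. SLC7A11, the cystine importer, was at 6.64 in the ALDH-positive and 7.87 in the ALDH-negative fraction, a difference of -1.23. CTH, which makes cysteine, differed by -0.79, and DDIT3, a stress transcription factor, by -0.66. PSPH, the last enzyme of serine synthesis, went the other way at 0.51, and ATF4 itself was at 9.04 in both fractions. Of 21 genes above the floor in the CD133 sort 14 were higher, with a median of 0.09, where 42.9% of all genes were higher. In that sort 0 of the 21 reached 1.5-fold (1 lower with centring), beside 2.74% of all genes higher and 1.89% lower. DDIT3 (-0.58) and PSPH (-0.49) differed most there, both lower in CD133-positive cells. ALDH1L2 was also lower in ALDH-positive cells, but its difference was -0.02 with values under the floor set to the floor. Whether its values are linked to those of this list was not tested.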

How the data were processed

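RNA of 4 sorted Huh7 fractions was measured on 1 array each, from Trizol-extracted, biotin-labelled RNA per the labels' protocols. The authors deposited log2 values from RMA, per the submitters' processing notes. That the scale is log2 follows from their range; software, version and genome build are not given in the sources used here. Because RMA equalises the arrays, a change common to most genes cannot be seen, and differences of dim probes are compressed.

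Of 28869 probes, 19310 have exactly 1 gene symbol in the platform annotation. A gene took its probe with the highest mean. All 7 genes carry the same symbol under their gene identifier in a RefSeq table (GRCh38.p14). Genes above the floor (median of all values) were counted at 1.5-fold and 2-fold, without tests, since each group has 1 array; the number of arrays limits the precision. The 7 genes and the lists were chosen with earlier results of these data known. Named were the 7 genes; per list and sort, genes at 1.5-fold (up to 6) or else the 2 most different; and the 3 nearest patterns of genes with a range of at least 0.5. RBP4, CYP26A1, SHMT2, MTHFD2, GGH, ATF4, PTPRC, CD14 and NKG7 were added after their values were seen. The computation was checked on simulated data. Alternatives were values raised to the floor, a stricter floor (75th percentile) or none, other probe rules, 2-fold, centring, a second quantile normalization and loess (span 0.4). A planned comparison of protein sequences was not made. Python 3.11.15, pandas 2.3.3, statsmodels 0.14.6 and matplotlib 3.10.9 were used.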

Additional observations from a re-analysis of the deposited data

Results flagged for a closer look

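ALDH1L2 went opposite ways in the sorts, at -0.65 in the ALDH and 0.58 in the CD133 sort, but both CD133 values lay below the floor, and the ALDH difference was -0.02 with values set to the floor, so the opposition rests on dim signal. RDH10 also went opposite ways, at -0.86 and 0.90, well above the floor. Among the marker genes so did TTR, a thyroid hormone carrier made by hepatocytes, at -0.58 and 0.99, unlike most hepatocyte markers, of which 10 of 13 were lower in CD133-positive cells, and lysozyme LYZ at 1.33 and -0.69. Each rests on 1 array per fraction, and the difference between the sorts was not tested.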

How the results depend on the processing

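Of 76 differences recomputed for single genes of the 7, 74 moved by less than the robust spread of all genes' differences (0.34 in the ALDH and 0.24 in the CD133 sort). The exceptions were ALDH1L2 in the ALDH sort (-0.02) and ALDH1A3 in the CD133 sort (0.15), both with values under the floor set to it. Many of the 76 could not move. A stricter floor or none, or the mean over probes for a gene with 1 probe, leaves a gene's own difference unchanged. The spread is also wider than several of the differences, so the sign changes of ALDH1A1 and ALDH2 count as within it. The count of 1 gene 1.5-fold lower in ALDH-positive cells became 0 with values raised to the floor, 0 with a floor at the 75th percentile (3 genes left) and 0 at 2-fold. In the CD133 sort the count of 0 lower became 1, ALDH1L1, with each array centred on its median. Of 158 recomputed medians 154 moved by less than the spread. The median of the retinoic acid targets in the ALDH sort was -0.24 with the floor at the 75th percentile (2 genes left), that of endothelial markers, -0.80 over 2 genes, was 0.15 with no floor and -0.43 with values raised to it, and that of leukocyte markers in the CD133 sort, -0.21 over 4 genes, was 0.073 with no floor. These changes follow from which genes enter or how dim values are bounded. Of 308 recomputed list counts, 277 stayed within 1.5 times. Dim signal limits ALDH1A2, ALDH1A3 and ALDH1L2 most. No paired analysis was possible because each group has 1 array, and for the same reason no array could be left out.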
